A study of Cucumis melo with 24 samples.

Results

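Ripe melon owes much of its smell to volatile esters, alcohols and aldehydes, and 7 genes of the enzyme classes that make them were followed through fruit development in the cmnac-nor mutant and in the wild type (WT). They are 2 genes described as benzyl alcohol O-benzoyltransferases, a branched-chain-amino-acid aminotransferase, a pyruvate decarboxylase, a cinnamyl alcohol dehydrogenase, an alcohol dehydrogenase-like gene and a linoleate 13S-lipoxygenase, 7 of the 29980 genes in the deposited table. The 7 were chosen by their description and by measured values of these same libraries, their levels in the 2 genotypes over 4 ages, so their levels and differences are given as a description, without a test. The groups are cmnac-nor mutant flesh and WT flesh of Cucumis melo taken 15, 25, 35 and 45 days after pollination (DAP), giving 8 groups of 3 libraries. The labels give no cultivar, and neither the kind of mutation, the number of mutant lines nor whether fruits were pooled is given in the sources used here. They do not say whether the 3 libraries of a group are different fruits or plants, and any p-value then covers the spread of these samples alone, and that spread could be technical.

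Volatile esters form when an alcohol acyltransferase, an enzyme of the BAHD family, joins an alcohol to the acyl group of a coenzyme A thioester. The pieces come from several routes. Aminotransferases turn branched-chain and other amino acids into keto acids, decarboxylases turn keto acids into aldehydes, alcohol dehydrogenases interconvert aldehydes and alcohols, and lipoxygenases start the breakdown of fatty acids into short aldehydes. In melon fruit, ester production is known to accompany ripening.

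Values are TPM, transcript abundances scaled to a fixed total per library, a level per transcript length that is set against all other transcripts of a library. Sequencing depth cannot be recovered from TPM, and counting intervals are therefore not given. Differences are mutant minus WT of log2(TPM + 1), a scale on which the change of low genes is understated, with a standard error (SE) pooled by limma over all 24 libraries. In bulk flesh, fewer cells of a type and less RNA per cell cannot be told apart. CmNAC-NOR, the NAC transcription factor gene named in the mutant (MELO3C016540.2, identifier known from published work), stood at means of 149, 543, 1150 and 1860 TPM in the mutant and 777, 1420, 1050 and 458 TPM in WT at the 4 ages in order. All 5 AGAMOUS-type carpel genes of the fruit marker list were detected in every group, with a summed level of 1850 to 3210 TPM in mutant libraries and 1700 to 3720 TPM in WT libraries. At 15 DAP the sum was 2550 to 3010 TPM in the mutant and 3290 to 3720 TPM in WT. At 35 DAP it was 2750 to 3210 TPM and 2250 to 2490 TPM, and at 45 DAP 1850 to 2050 TPM and 1700 to 1810 TPM. At 25 DAP the sums overlapped. Of the 5 genes, 2 were called higher and 2 lower at 35 DAP (limma adjusted p under 0.05), beside 41.2% and 23.2% of all genes. Seed storage proteins (11S globulins, 2S albumins and vicilins) averaged under 1 TPM. Of 39 listed seed genes, the 13 left without leguminosin peptides summed to 48.6 to 115 TPM in the mutant and 39.4 to 156 TPM in WT. Within an age the seed sums did not overlap, and were higher in the mutant at 15 and 25 DAP and lower at 35 and 45 DAP. They were 76.1 to 115 TPM in the mutant and 39.4 to 47.8 TPM in WT at 25 DAP. At 35 DAP they were 53.4 to 65.4 TPM and 80.9 to 156 TPM. The sums rest mostly on 2 oleosins, MELO3C005464.2 and MELO3C011123.2, at means of 39.7 and 36 TPM over all libraries. Of 5 tested seed genes, 0 were called at 15 DAP, beside 10.3% higher and 7.99% lower of all genes. At 25 DAP 2 were called higher and 1 lower (beside 48.6% and 18.3%). These were 1 and 1 at 35 DAP (41.2% and 23.2%) and 2 and 1 at 45 DAP (38.5% and 22%). The 22 rind genes summed to 78.3 to 126 TPM in the mutant and 50.8 to 180 TPM in WT. Rind sums overlapped at 15 and 35 DAP. They were 103 to 115 TPM in the mutant and 138 to 180 TPM in WT at 25 DAP, and 78.3 to 89.4 TPM and 67.2 to 69.8 TPM at 45 DAP.

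Summed phloem levels overlapped between genotypes at 15 DAP and were higher in the mutant from 25 DAP on. The 18 listed phloem genes, of which 1 was at 0 in every library, summed to 11300 to 26100 TPM in the mutant and 9930 to 19500 TPM in WT at 15 DAP, and to 5860 to 9060 TPM in the mutant and 1840 to 2930 TPM in WT at 25 DAP. At 35 DAP the sums were 3830 to 6940 TPM in the mutant and 178 to 370 TPM in WT, and at 45 DAP they were 7170 to 10600 TPM in the mutant and 97.1 to 149 TPM in WT. The 26 kDa phloem lectin MELO3C002874.2 averaged 5190 TPM over all libraries and the next gene 679 TPM, so the sums depend much on 1 gene. Of 16 tested phloem genes, 2 were called higher and 1 lower at 15 DAP (limma adjusted p under 0.05), beside 10.3% and 7.99% of all genes. At 25 DAP 9 were higher and 1 lower (beside 48.6% and 18.3%). At 35 DAP these were 10 and 2 (41.2% and 23.2%), and at 45 DAP 12 and 0 (38.5% and 22%). The part of these marker shifts in the differences given here was not tested.

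From 25 DAP on, the largest differences among the 7 were those of the ester-forming genes. The O-benzoyltransferase MELO3C024771.2 belongs to the acyltransferase family that makes volatile esters. At 15 DAP its level was 1.35, 2.36 and 2.52 TPM in mutant libraries 1 to 3, against 15.8, 402 and 64.5 TPM in WT libraries 1 to 3. At 25 DAP it was at 2.31, 3.69 and 80.8 TPM in the mutant, against 19979.5, 20021 and 20723 TPM in WT. The groups did not overlap at either age, and the WT level spread widely at 15 DAP and hardly at all at 25 DAP. At 35 DAP the mutant libraries held 4.21, 3.11 and 2.85 TPM and the WT libraries 20591, 17676 and 21046 TPM. At 45 DAP the mutant libraries held 6.40, 7.71 and 1.63 TPM and the WT libraries 11996, 16456 and 14155 TPM. This was the most abundant transcript of all genes in every WT library at 25 and 35 DAP, and ranked 1 or 2 at 45 DAP. The differences were -4.65, -10.87, -12.15 and -11.31 at the 4 ages in order (SE 0.97 each). Mutant library 3 at 25 DAP stood above the other two, and without it the difference at that age was -12.33, against -10.01 and -10.26 without mutant library 1 or 2. WT library 2 at 15 DAP was the highest of its group, and the difference there was -3.45 without it and -5.74 without WT library 1.

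The second O-benzoyltransferase, MELO3C024766.2, carries the same description. At 15 DAP it was at 0.29, 0.25 and 0.27 TPM in the mutant, against 8.78, 189 and 34.8 TPM in WT. At 25 DAP it was at 0.20, 0.37 and 13.5 TPM in the mutant, against 4555, 3909 and 4347 TPM in WT. The libraries that stood apart were those of the first gene, WT library 2 at 15 DAP and mutant library 3 at 25 DAP. At 35 DAP the gene was at 0.29, 0.45 and 0.27 TPM in the mutant, against 3569, 2744 and 3298 TPM in WT. At 45 DAP it was at 0.62, 2.91 and 1.11 TPM in the mutant, against 1635, 2187 and 1778 TPM in WT. The groups did not overlap at any age, and the differences were -5.00, -10.53, -11.22 and -9.61 (SE 0.82 each). The difference at 15 DAP was -3.88 without WT library 2 and -6.02 without WT library 1, and that at 25 DAP was -11.70 without mutant library 3 and -9.90 without mutant library 1.

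The 2 O-benzoyltransferase genes did not keep 1 ratio. In WT the TPM of MELO3C024771.2 was 1.80 to 2.12 times that of MELO3C024766.2 at 15 DAP and 4.39 to 5.12 times at 25 DAP. The older WT fruit had ratios of 5.77 to 6.44 at 35 DAP and 7.34 to 7.96 at 45 DAP. These ranges do not overlap between ages. In the mutant, where both genes were low, the ratio lay between 1.47 and 14.5. Their sequences were not compared here, and if they are similar the authors' assignment of reads could have moved signal between them.

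**Figure D1:**
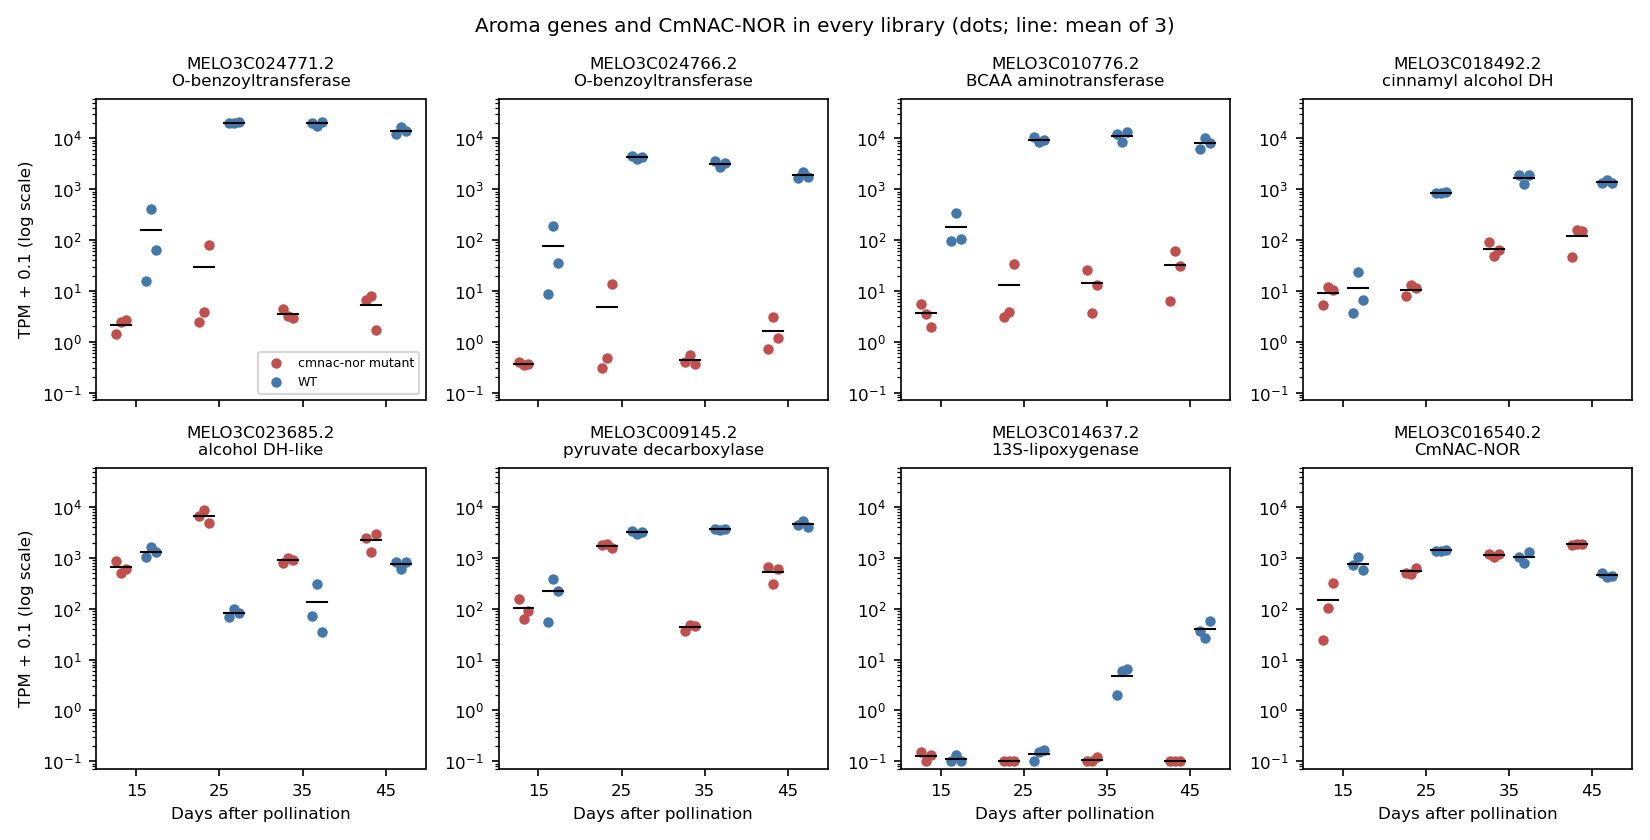
TPM + 0.1 on a log axis against days after pollination for the 7 aroma genes and CmNAC-NOR, with a dot for each of the 24 libraries (mutant left of WT) and a line at each mean of 3. Mutant libraries of MELO3C024771.2 lie between 1.35 and 80.8 TPM at every age, while WT libraries lie between 11996 and 21046 TPM from 25 DAP on.

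Upstream of the esters, the aminotransferase MELO3C010776.2, of the class that converts branched-chain amino acids and keto acids into each other, followed the same course. At 15 DAP it was at 5.48, 3.36 and 1.87 TPM in the mutant, against 95.45, 348 and 107 TPM in WT. At 25 DAP it was at 2.93, 3.77 and 33.0 TPM in the mutant, against 10594, 8341 and 9463 TPM in WT. The WT level passed that of every mutant library at both ages, and from 25 DAP on the gene ranked between 3 and 6 among all genes in each WT library. At 35 DAP it was at 25.35, 3.62 and 13.1 TPM in the mutant, against 12242, 8509 and 13447 TPM in WT. At 45 DAP it was at 6.36, 59.8 and 30.6 TPM in the mutant, against 6251, 9993 and 8158 TPM in WT. Mutant and WT did not overlap at any age, and from 25 DAP on the mutant libraries of an age differed among themselves by several times their lowest level. The differences were -5.15, -10.10, -9.87 and -8.37 (SE 0.79 each). They were -4.56 at 15 DAP without WT library 2, -11.09 at 25 DAP without mutant library 3 and -9.18 at 35 DAP without mutant library 2. At 45 DAP the difference was -7.51 without mutant library 1 and -9.03 without mutant library 2.

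The pyruvate decarboxylase MELO3C009145.2, of the class that turns pyruvate and related keto acids into aldehydes, was high in WT from 25 DAP on and uneven over the ages in the mutant. At 15 DAP it was at 158, 63.7 and 88.7 TPM in the mutant, against 53.8, 383 and 219 TPM in WT, and the groups overlapped. At 25 DAP it was at 1788, 1909.99 and 1543 TPM in the mutant, against 3428, 3007 and 3172 TPM in WT. The mutant thus held a level within the same order of magnitude as WT at 25 DAP, unlike for the transferases. At 35 DAP it was at 37.0, 46.9 and 45.3 TPM in the mutant, against 3641, 3487 and 3774 TPM in WT. At 45 DAP it was at 659, 301 and 593 TPM in the mutant, against 4415, 5320.1 and 4024 TPM in WT. The differences were -0.78, -0.88, -6.37 and -3.21 (SE 0.47 each), and quantile normalization brought the one at 25 DAP to -0.13. At 15 DAP the difference was -1.58 without WT library 1 and -0.17 without WT library 2. Between neighbouring ages, the mutant means differed by 4.16, -5.31 and 3.49 on the log2 scale and the WT means by 4.26, 0.18 and 0.33, later minus earlier.

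Both dehydrogenases act between aldehydes and alcohols, and they went opposite ways. The cinnamyl alcohol dehydrogenase MELO3C018492.2, of a family best known for reducing lignin precursors, was at 5.09, 11.9 and 10.15 TPM in the mutant at 15 DAP, against 3.56, 23.6 and 6.58 TPM in WT. At 25 DAP it was at 7.67, 12.8 and 11.2 TPM in the mutant, against 848, 837 and 880.3 TPM in WT. The groups overlapped at 15 DAP and were far apart at 25 DAP. At 35 DAP it was at 91.3, 48.5 and 63.6 TPM in the mutant, against 1872, 1293 and 1874 TPM in WT. At 45 DAP it was at 46.2, 158 and 148 TPM in the mutant, against 1357, 1500.2 and 1353 TPM in WT. The mutant level was higher at the later 2 ages than at the earlier 2, without overlap, and stayed below that of WT. The differences were 0.01, -6.24, -4.64 and -3.76 (SE 0.49 each), and the one at 15 DAP was 0.70 without WT library 2.

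The alcohol dehydrogenase-like gene MELO3C023685.2 was the only one of the 7 with higher mutant levels from 25 DAP on. At 15 DAP it was at 886, 497.5 and 615 TPM in the mutant, against 1021, 1649 and 1306 TPM in WT. At 25 DAP it was at 6629, 8713 and 4978 TPM in the mutant, against 69.7, 97.6 and 83.2 TPM in WT. Every mutant library lay below every WT library at 15 DAP and above it at 25 DAP. At 35 DAP it was at 799, 985 and 898 TPM in the mutant, against 71.5, 307 and 35.2 TPM in WT. At 45 DAP it was at 2445, 1306 and 2895 TPM in the mutant, against 833, 614 and 815 TPM in WT. The mutant stayed higher without overlap, and the WT level at 45 DAP lay above those at 25 and 35 DAP. The differences were -1.01, 6.30, 3.26 and 1.49 (SE 0.50 each), and the turn of sign after 15 DAP was not tested. At 35 DAP the difference was 4.12 without WT library 2, the highest of its group, and 2.58 without WT library 3, the lowest.

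The lipoxygenase MELO3C014637.2, described as linoleate 13S-lipoxygenase 2-1-like and of the class that oxidises polyunsaturated fatty acids, was a late WT transcript. It was listed at 0.05, 0 and 0.03 TPM in the mutant at 15 DAP, against 0, 0.03 and 0 TPM in WT, and at 0 in all 3 mutant libraries at 25 DAP, against 0, 0.05 and 0.07 TPM in WT. At 35 DAP it was listed at 0, 0 and 0.02 TPM in the mutant, against 1.91, 5.88 and 6.45 TPM in WT. At 45 DAP it was listed at 0 in all 3 mutant libraries, against 37.2, 26.2 and 57.2 TPM in WT. The 2 groups of WT at 35 and 45 DAP were thus the ones with a measurable level, and they did not overlap. The gene passed the filter on low values through WT libraries of these ages alone, and no fold is given against groups listed at 0.

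At 15 DAP 4 of the 7 genes had every mutant library below every WT library and 3 overlapped, where 7.99% of the 17658 genes tested were called lower and 10.3% higher at a limma adjusted p under 0.05. At 25 DAP 5 lay below, 1 above and 1 overlapped, where 18.3% of genes were called lower and 48.6% higher. At 35 DAP 6 lay below and 1 above, where 23.2% were called lower and 41.2% higher, and at 45 DAP 6 lay below and 1 above, where 22% were called lower and 38.5% higher. Lack of overlap and a limma call are different measures, and the share of all genes without overlap is not given here. Since the genes were picked with these comparisons known, nothing is read from their counts or from their median difference. Leaving out the lipoxygenase, the median difference of 6 genes was -2.83, -8.17, -8.12 and -6.06 at the 4 ages, and that of all genes tested was 0.03, 0.44, 0.27 and 0.22.

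**Figure D2:**
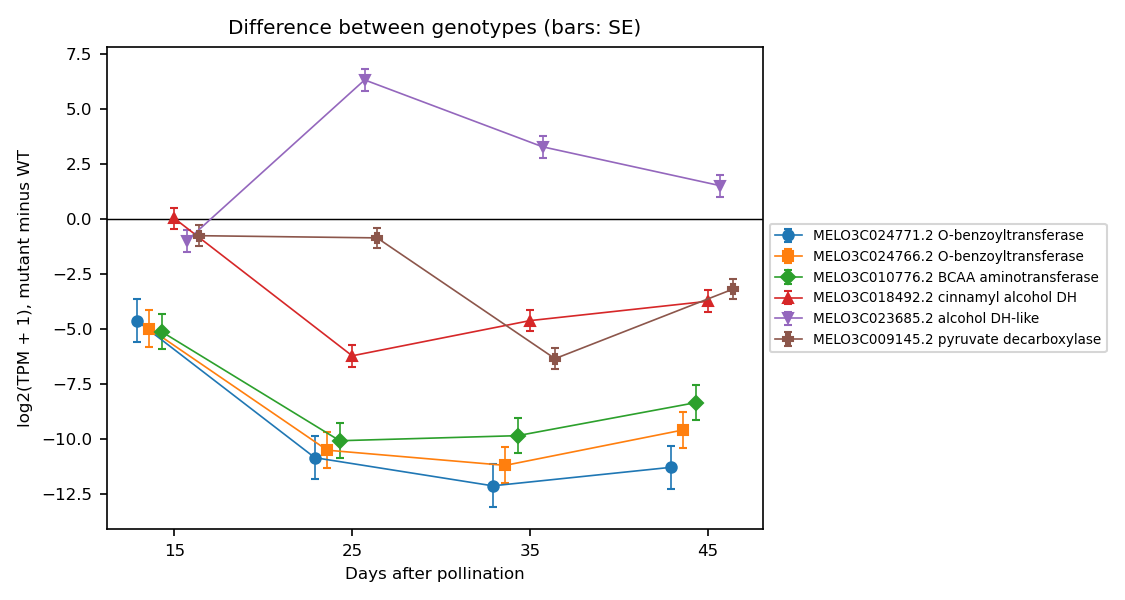
Difference of mean log2(TPM + 1), mutant minus WT, against days after pollination for 6 aroma genes, with bars for the SE. The 2 O-benzoyltransferases and the aminotransferase lie between -4.65 and -12.15 at every age, while the alcohol dehydrogenase-like gene goes to 6.30 at 25 DAP.

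The 7 genes together made up a visible part of the WT library. They took 0.0609% to 0.111% of the listed TPM in mutant libraries and 0.126% to 0.313% in WT libraries at 15 DAP, and 0.706% to 1.12% in the mutant and 3.81% to 4.16% in WT at 25 DAP. At 35 DAP the shares were 0.102% to 0.115% in the mutant and 3.61% to 4.61% in WT, and at 45 DAP they were 0.195% to 0.387% in the mutant and 2.86% to 3.88% in WT. Most of the mutant share at 25 DAP was the alcohol dehydrogenase-like gene and the decarboxylase, at means of 6770 and 1750 TPM. WT library 2 at 15 DAP was the highest of its group for all 7 genes.

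The genes differed in the age of their highest mean. Both O-benzoyltransferases were highest in WT at 25 DAP, at 20200 and 4270 TPM. The first did not differ between WT at 25 and 35 DAP beyond the spread of the libraries and was lower at 45 DAP, while the second was lower at each following age without overlap. The aminotransferase and the cinnamyl alcohol dehydrogenase were highest in WT at 35 DAP, at 11400 and 1680 TPM, and their libraries overlapped those of the next group in order, WT at 25 DAP for the aminotransferase and WT at 45 DAP for the dehydrogenase. The decarboxylase was highest in WT at 45 DAP, at 4590 TPM, without overlap with 35 DAP, and the lipoxygenase was highest there too. The alcohol dehydrogenase-like gene was highest in the mutant at 25 DAP, followed by the mutant at 45 DAP and WT at 15 DAP, whose libraries overlapped each other.

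**Figure D3:**
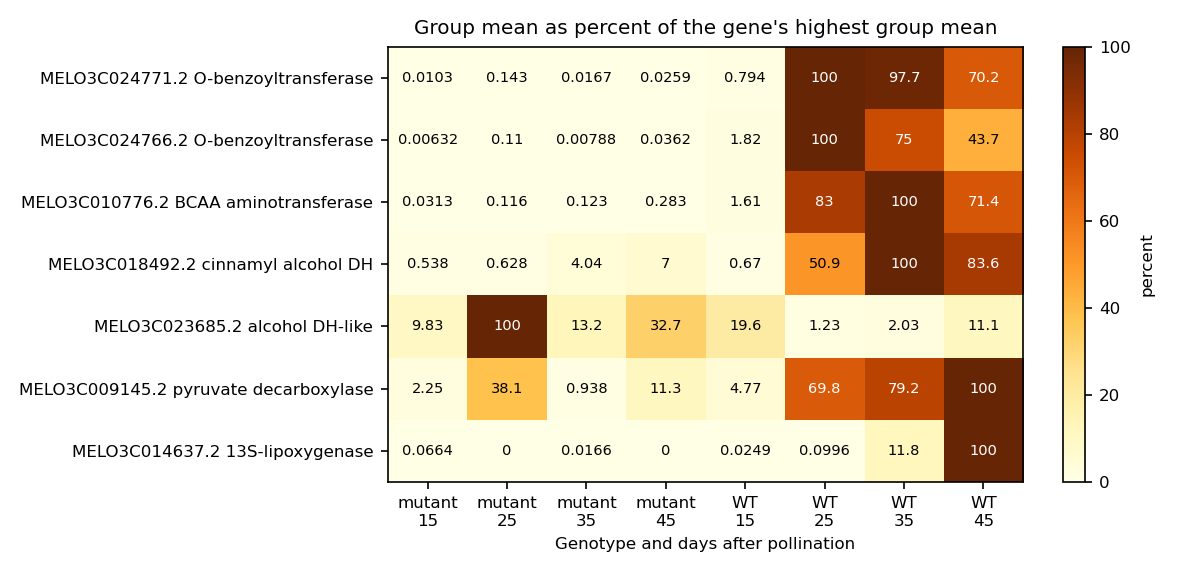
Mean TPM of each aroma gene in each of the 8 groups (mutant left, WT right, by days after pollination) as a percent of the gene's own highest group mean. The second O-benzoyltransferase is at 75% and 43.7% of its maximum in WT at 35 and 45 DAP, against 97.7% and 70.2% for the first.

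Likeness of pattern was measured as the mean absolute difference, in percentage points of a gene's own highest group mean, over the 8 groups. Among the 7, the closest were MELO3C024771.2 and the aminotransferase (2.71 points), then the 2 O-benzoyltransferases (6.27 points) and the aminotransferase with the cinnamyl alcohol dehydrogenase (7.11 points). The alcohol dehydrogenase-like gene was 34.4 to 53.5 points from the other six. Among 5869 genes that have a description and a highest group mean of at least 50 TPM, those nearest to MELO3C024771.2 were a gene described as 3-oxo-5-alpha-steroid 4-dehydrogenase 1-like (MELO3C012324.2, 1.11 points) and a cytochrome P450 (MELO3C000613.2, 1.15 points). A phytosulfokine 3-like gene (MELO3C030339.2), of a family of peptide growth factors, lay 0.619 points from MELO3C024766.2, and a disease resistance family gene (MELO3C005506.2) lay 2.46 points from it. A cytochrome P450 (MELO3C002311.2, 2.10 points) and MELO3C012324.2 (2.51 points) were nearest to the aminotransferase. A glutathione S-transferase L3-like gene (MELO3C031023.2, 2.25 points) and an alpha/beta hydrolase (MELO3C005787.2, 2.28 points) were nearest to the cinnamyl alcohol dehydrogenase. The alcohol dehydrogenase-like gene had a gene described as an ethylene receptor (MELO3C015961.2, 3.09 points, highest in the mutant at 25 DAP at 889 TPM) and a RING-H2 finger gene (MELO3C006682.2, 3.40 points) as its nearest. The decarboxylase was less closely matched, with an auxin-responsive family gene (MELO3C005913.2) at 5.86 points and a transporter of the NRT1/PTR family (MELO3C009190.2) at 6.43 points. The nearest of the lipoxygenase were 2 genes described as unknown protein, MELO3C032387.2 at 0.477 points and MELO3C008696.2 at 0.893 points.

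The other genes of the same routes were mixed in direction. They were 175 genes listed from words in their descriptions, without the 7, of which 94 passed the filter on low values and were tested. At 15 DAP 8 were higher (8.51% of 94, beside 10.3% of all genes) and 16 lower in the mutant (17%, beside 7.99%). At 25 DAP 38 were higher (40.4%, beside 48.6%) and 23 lower (24.5%, beside 18.3%). At 35 DAP 30 were higher (31.9%, beside 41.2%) and 25 lower (26.6%, beside 23.2%), and at 45 DAP 27 were higher (28.7%, beside 38.5%) and 27 lower (28.7%, beside 22%). Their median differences were -0.12, 0.27, 0.16 and 0.05. With median-of-ratios scaling the split of higher to lower was 30 to 30, 23 to 29 and 25 to 34 at 25, 35 and 45 DAP, and with quantile normalization it was 28 to 33, 23 to 35 and 24 to 35. Over ages, the genotype difference varied for 66 of the 94 (70.2%, beside 73.5% of all genes, F test). Between neighbouring ages, the mutant differed for 28 (29.8%, beside 19.1%), 25 (26.6%, beside 20.5%) and 31 (33%, beside 29.2%) of the 94, and WT for 54 (57.4%, beside 63.4%), 39 (41.5%, beside 38.9%) and 22 (23.4%, beside 16%).

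Fatty acid beta-oxidation, which supplies acyl-CoA, held many of the genes lower in the mutant. Of its 13 tested genes, 0 were higher and 8 lower at 15 DAP, 1 higher and 8 lower at 25 DAP, 2 higher and 7 lower at 35 DAP, and 1 higher and 6 lower at 45 DAP, with medians of -0.49, -0.57, -0.25 and -0.11. As shares, 0%, 7.69%, 15.4% and 7.69% were higher, beside 10.3%, 48.6%, 41.2% and 38.5% of all genes. Lower were 61.5%, 61.5%, 53.8% and 46.2%, beside 7.99%, 18.3%, 23.2% and 22%. No gene was higher at 15 DAP at an unadjusted limma p under 0.05 either (0 of 13), and both scalings kept more genes lower than higher at every age. The peroxisomal 3-ketoacyl-CoA thiolase MELO3C006334.2, which carries out the last step of a beta-oxidation round, was highest in WT at 45 DAP. It averaged 39.1, 50.1, 81.9 and 250 TPM in the mutant and 125, 831, 2870 and 3280 TPM in WT at the 4 ages, and was lower at each (log2 differences -1.62, -4.02, -5.13 and -3.72, SE 0.19, adjusted p = 1.17e-05, 4.41e-12, 1.54e-13 and 9.68e-12). A second thiolase, MELO3C020466.2, differed by only -0.44 and -0.59 at 15 and 25 DAP (adjusted p = 0.000372 and 9.82e-07), by -0.19 at 35 DAP (0.0295) and by -0.11 at 45 DAP (0.204), the last of these called with median-of-ratios scaling (-0.33, 0.00226; 0.00226 to 0.393 over all settings). Its calls at 15 and 35 DAP ended when only the 2 groups compared were fitted (adjusted p = 0.0702 and 0.0945; 0.000122 to 0.0702 and 0.000151 to 0.13 over all settings), and at 35 DAP also without WT library 2 (0.13) or mutant library 2 (0.0756) or 3 (0.107). The multifunctional protein MELO3C004565.2 was lower at 15, 25 and 35 DAP (-1.43, -0.57 and -1.23, SE 0.13, adjusted p = 4.93e-07, 0.000764 and 1.05e-07) and differed by 0.15 at 45 DAP (0.334).

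The other genes of the lipoxygenase route were called in both directions. Of 13 tested genes, 2 were higher and 0 lower at 15 DAP, 8 higher and 3 lower at 25 DAP, 10 higher and 2 lower at 35 DAP, and 6 higher and 2 lower at 45 DAP, with medians of 0.10, 1.86, 2.29 and 1.15. The count of lower genes at 15 DAP was also 0 at an unadjusted limma p under 0.05. Higher were 15.4%, 61.5%, 76.9% and 46.2% of the 13, beside 10.3%, 48.6%, 41.2% and 38.5% of all genes. Lower were 0%, 23.1%, 15.4% and 15.4%, beside 7.99%, 18.3%, 23.2% and 22%. Of those called, 72.7%, 83.3% and 75% were higher in the mutant at 25, 35 and 45 DAP, beside 72.7%, 63.9% and 63.6% of all genes called. Quantile normalization gave 5 higher and 3 lower at 25 DAP. The lipoxygenase MELO3C024348.2 was higher in the mutant at 25, 35 and 45 DAP (5.13, 3.68 and 5.23, SE 0.76, adjusted p = 8.78e-06, 0.000317 and 8.14e-06) and differed by 0.82 at 15 DAP (0.505). MELO3C014482.2 was higher at 15 DAP (1.68, SE 0.34, adjusted p = 0.00192) and 35 DAP (2.29, 8.85e-06), lower at 25 DAP (-1.25, 0.00324) and at -0.30 at 45 DAP (0.462). Without WT library 3 the 45 DAP value was called (-0.78, 0.0305; 0.0305 to 0.891 over all settings). Its call at 15 DAP ended when only the 2 groups compared were fitted (adjusted p = 0.0541; 0.000639 to 0.0541 over all settings). MELO3C007767.2, which the list took in for a lipoxygenase domain name alone, was higher at 25 and 35 DAP (4.76 and 4.67, SE 0.71, adjusted p = 8.99e-06 and 1.13e-05). It differed by 1.17 at 15 DAP (0.277) and 1.88 at 45 DAP (0.0277), and the call at 45 DAP ended without WT library 1 (0.0602) or 2 (0.0736) or mutant library 1 (0.0548) or 2 (0.0809), in a range of 0.000797 to 0.0809. The 15 DAP value was called when only the 2 groups compared were fitted (0.0338; 0.0338 to 0.475).

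Among other ester genes, 3 of 6 were tested. The BAHD acyltransferase MELO3C003230.2, described as DCR-like, a class known in Arabidopsis for cutin formation, averaged 31.7, 975, 577 and 382 TPM in the mutant and 155, 654, 16.5 and 6.48 TPM in WT. It was lower in the mutant at 15 DAP (-2.38, SE 0.43, adjusted p = 0.000712) and higher at 35 and 45 DAP (5.0 and 5.68, 7.02e-09 and 1.48e-09), with 0.59 at 25 DAP (0.23; 0.05 to 0.81 over all settings). The call at 15 DAP ended when only the 2 groups compared were fitted (adjusted p = 0.0689; 0.000341 to 0.0689 over all settings). The 1 gene listed for ester hydrolysis, MELO3C009925.2, is described as senescence-associated carboxylesterase 101, and whether it acts on volatile esters was not tested. It averaged 18.5 TPM in the mutant and 6.69 TPM in WT at 45 DAP and was higher there (1.37, SE 0.32, adjusted p = 0.0011). At the earlier ages it differed by 0.04, 0.20 and 0.55 (0.96, 0.604 and 0.14). Its 35 DAP value was called when only the 2 groups compared were fitted (0.00997; 0.00997 to 0.599 over all settings).

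Of 15 tested genes of the amino acid route, 4, 8, 6 and 5 were higher in the mutant and 1, 2, 4 and 5 lower at the 4 ages in order. As shares, 26.7%, 53.3%, 40% and 33.3% were higher, beside 10.3%, 48.6%, 41.2% and 38.5% of all genes. Lower were 6.67%, 13.3%, 26.7% and 33.3%, beside 7.99%, 18.3%, 23.2% and 22%. With median-of-ratios scaling 4, 5 and 3 were higher and 4, 5 and 6 lower from 25 DAP on, and with quantile normalization 4, 5 and 4 were higher and 4, 5 and 5 lower, so no direction of the route is given. Ketol-acid reductoisomerase (MELO3C018695.2), an enzyme of branched-chain amino acid synthesis, was higher in the mutant at all 4 ages (0.79, 0.80, 1.72 and 0.46, SE 0.14, adjusted p = 0.000484, 4.05e-05, 2.46e-09 and 0.00601). The call at 15 DAP ended when only the 2 groups compared were fitted (0.0564; 8e-05 to 0.0564) and that at 45 DAP with median-of-ratios scaling (0.0611; 0.00116 to 0.0611). The isopropylmalate synthase MELO3C020296.2, named for the first step of leucine synthesis, was lower at all 4 ages (-0.73, -1.11, -1.67 and -1.21, SE 0.21, adjusted p = 0.0225, 0.000165, 1.47e-06 and 7.83e-05). Its call at 15 DAP ended without WT library 2 (0.0717) or 3 (0.0575) or mutant library 2 (0.0835), in a range of 0.0165 to 0.0835. Acetolactate synthase (MELO3C026205.2), which acts before both, differed by 0.31, 0.66, -0.07 and 0.71 (SE 0.28, adjusted p = 0.487, 0.0403, 0.832 and 0.0326), and its adjusted p ran from 0.0182 to 0.433 at 25 DAP and from 0.019 to 0.12 at 45 DAP over all settings. The 25 DAP call ended with no filter on low values (0.0525), with median-of-ratios scaling (0.433) and quantile normalization (0.0826), and the 45 DAP call with median-of-ratios scaling (0.0811). The 25 DAP call also ended without mutant library 1 (0.0662) or 2 (0.173) or each of the 3 WT libraries in turn (0.104, 0.0705 and 0.0595), and the 45 DAP call without mutant library 2 (0.0673) or 3 (0.112) or WT library 1 (0.0785) or 2 (0.12).

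A second pyruvate decarboxylase, MELO3C007227.2, was the 1 tested of 5 other decarboxylases. It averaged 208, 344, 125 and 195 TPM in the mutant and 217, 83.1, 72.6 and 127 TPM in WT. Unlike MELO3C009145.2, it was higher in the mutant at 25 DAP (2.05, SE 0.19, adjusted p = 2.95e-08), 35 DAP (0.82, 0.00103) and 45 DAP (0.62, 0.00991), with -0.05 at 15 DAP (0.907). The call at 45 DAP ended without WT library 2 (0.0546; 0.00337 to 0.0546 over all settings). Between neighbouring mutant ages it differed by 0.74, -1.45 and 0.63, later minus earlier (adjusted p = 0.0123, 5.01e-05 and 0.0188).

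Another cinnamyl alcohol dehydrogenase, MELO3C019548.2, averaged 72.5 TPM in the mutant and 4.27 TPM in WT at 45 DAP and was higher there (3.79, SE 0.33, adjusted p = 1.18e-08), with -0.36, -0.44 and 0.37 at the earlier ages (0.503, 0.249 and 0.347). The 25 DAP value was called with median-of-ratios scaling (-0.88, 0.0194; 0.0194 to 0.773 over all settings). It was 1 of 2 tested genes of this family besides MELO3C018492.2. The other was called lower in the mutant at 35 DAP (-0.86) and 45 DAP (-0.74). At these ages 0% and 50% of the 2 were higher, beside 41.2% and 38.5% of all genes. Lower were 50% and 50%, beside 23.2% and 22%. At 15 and 25 DAP 0 of the 2 were called. Of 12 tested alcohol dehydrogenases, 2, 5, 4 and 3 were higher in the mutant and 3, 3, 3 and 4 lower at the 4 ages. As shares, 16.7%, 41.7%, 33.3% and 25% were higher, beside 10.3%, 48.6%, 41.2% and 38.5% of all genes. Lower were 25%, 25%, 25% and 33.3%, beside 7.99%, 18.3%, 23.2% and 22%. From 25 DAP on the split of higher to lower was 3 to 5, 2 to 5 and 3 to 7 with median-of-ratios scaling, and 5 to 6, 3 to 5 and 3 to 7 with quantile normalization. Alcohol dehydrogenase-like 7 (MELO3C026554.2) was higher at 25, 35 and 45 DAP (1.04, 2.11 and 1.37, SE 0.32, adjusted p = 0.00756, 1.08e-05 and 0.00102) and differed by 0.61 at 15 DAP (0.203). Its call at 25 DAP ended with median-of-ratios scaling (0.0851; 0.0027 to 0.0851 over all settings). MELO3C022399.2, described as alcohol dehydrogenase-like, differed by 0.47, 0.44, 0.32 and -0.50 (SE 0.11, adjusted p = 0.0068, 0.00191, 0.0166 and 0.000704). With median-of-ratios scaling the 25 DAP difference was -0.01 (adjusted p = 0.946; 0.00191 to 0.946) and the one at 35 DAP 0.07 (0.587; 0.00267 to 0.587), where the call also ended when only the 2 groups compared were fitted (0.0655) and without WT library 1 (0.103) or mutant library 2 (0.0642). The allyl alcohol dehydrogenase-like gene MELO3C003373.2 was lower at 35 and 45 DAP (-1.45 and -1.04, SE 0.17, adjusted p = 3.93e-07 and 2.64e-05), with -0.29 and -0.32 before (0.252 and 0.0954). The 25 DAP value was called with median-of-ratios scaling (-0.77, 0.000494), with quantile normalization (0.0262) and when only the 2 groups compared were fitted (0.019), in a range of 0.000494 to 0.259 over all settings.

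The phenylalanine route, which supplies benzenoid and phenylpropanoid volatiles as well as lignin, had 0, 14, 5 and 6 of 20 tested genes higher in the mutant and 1, 2, 2 and 3 lower at the 4 ages. As shares, 0%, 70%, 25% and 30% were higher, beside 10.3%, 48.6%, 41.2% and 38.5% of all genes. Lower were 5%, 10%, 10% and 15%, beside 7.99%, 18.3%, 23.2% and 22%. At an unadjusted limma p under 0.05 the count of higher genes at 15 DAP was also 0. At 25 DAP the split was 13 to 3 with median-of-ratios scaling and 11 to 3 with quantile normalization, while at 35 DAP it was 3 to 3 and 4 to 4, and at 45 DAP 6 to 3 and 5 to 5. The cinnamoyl-CoA reductase MELO3C010188.2 averaged 178, 927, 367 and 820 TPM in the mutant and 365, 213, 172 and 160 TPM in WT. It was lower in the mutant at 15 DAP (-1.19, SE 0.27, adjusted p = 0.00547) and higher at 25, 35 and 45 DAP (2.11, 1.08 and 2.38, adjusted p = 1.87e-06, 0.00204 and 4.78e-07), and the call at 15 DAP ended when only the 2 groups compared were fitted (0.191; 2.7e-05 to 0.191 over all settings). MELO3C014584.2 was higher at 25 and 35 DAP (1.55 and 0.55, SE 0.20, adjusted p = 1.23e-06 and 0.0202) and lower at 45 DAP (-0.61, 0.0116), with 0.38 at 15 DAP (0.195). Its call at 35 DAP ended with median-of-ratios scaling (0.123; 0.00473 to 0.123) and without WT library 1 (0.0676) or mutant library 1 (0.0664), and its call at 45 DAP ended when only the 2 groups compared were fitted (0.0606; 0.000231 to 0.102) and without WT library 1 (0.102). MELO3C017061.2 differed by -0.14, 0.29, 0.22 and 0.05 (SE 0.08, adjusted p = 0.278, 0.00513, 0.0271 and 0.634), and with median-of-ratios scaling by -0.16 at 25 DAP (0.0947; 0.00324 to 0.111 over all settings) and -0.03 at 35 DAP (0.763; 0.0124 to 0.763). Its 35 DAP call also ended without mutant library 1 (0.0606) or 2 (0.13) or WT library 1 (0.088) or 2 (0.0605).

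Terpene and carotenoid-derived volatile genes had 0, 1, 0 and 2 of 14 tested higher in the mutant and 2, 5, 6 and 6 lower at the 4 ages. As shares, 0%, 7.14%, 0% and 14.3% were higher, beside 10.3%, 48.6%, 41.2% and 38.5% of all genes. Lower were 14.3%, 35.7%, 42.9% and 42.9%, beside 7.99%, 18.3%, 23.2% and 22%. The counts of 0 were also 0 at an unadjusted limma p under 0.05. With quantile normalization 1, 8, 11 and 8 were lower, and with median-of-ratios scaling 2, 5, 6 and 7. The list also took in triterpene cyclases, which make no volatiles. The carotenoid cleavage dioxygenase MELO3C023555.2, of the class that releases carotenoid-derived volatiles, averaged 49.9, 55.9, 62.1 and 61.8 TPM in the mutant and 72.4, 218, 150 and 140 TPM in WT. It was lower in the mutant at 25, 35 and 45 DAP (-1.94, -1.26 and -1.16, SE 0.17, adjusted p = 9.63e-09, 2.34e-06 and 8.05e-06), and at 15 DAP differed by -0.49 (0.0489; 0.0272 to 0.266 over all settings). The 15 DAP call ended without each of the 3 mutant libraries in turn (0.0791, 0.136 and 0.0665) and without WT library 2, where the difference was -0.26 (0.246). The terpene synthase MELO3C017957.2 was higher at 45 DAP (0.92, SE 0.17, adjusted p = 0.000135), with -0.28, 0.15 and 0.24 before (0.279, 0.456 and 0.238). The triterpene cyclase MELO3C024270.2 differed by 0.22, 0.73, 0.16 and -0.02 (SE 0.19, adjusted p = 0.486, 0.00278, 0.475 and 0.941), and the call at 25 DAP ended with median-of-ratios scaling (0.0981; 0.00273 to 0.0981).

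**Figure D4:**
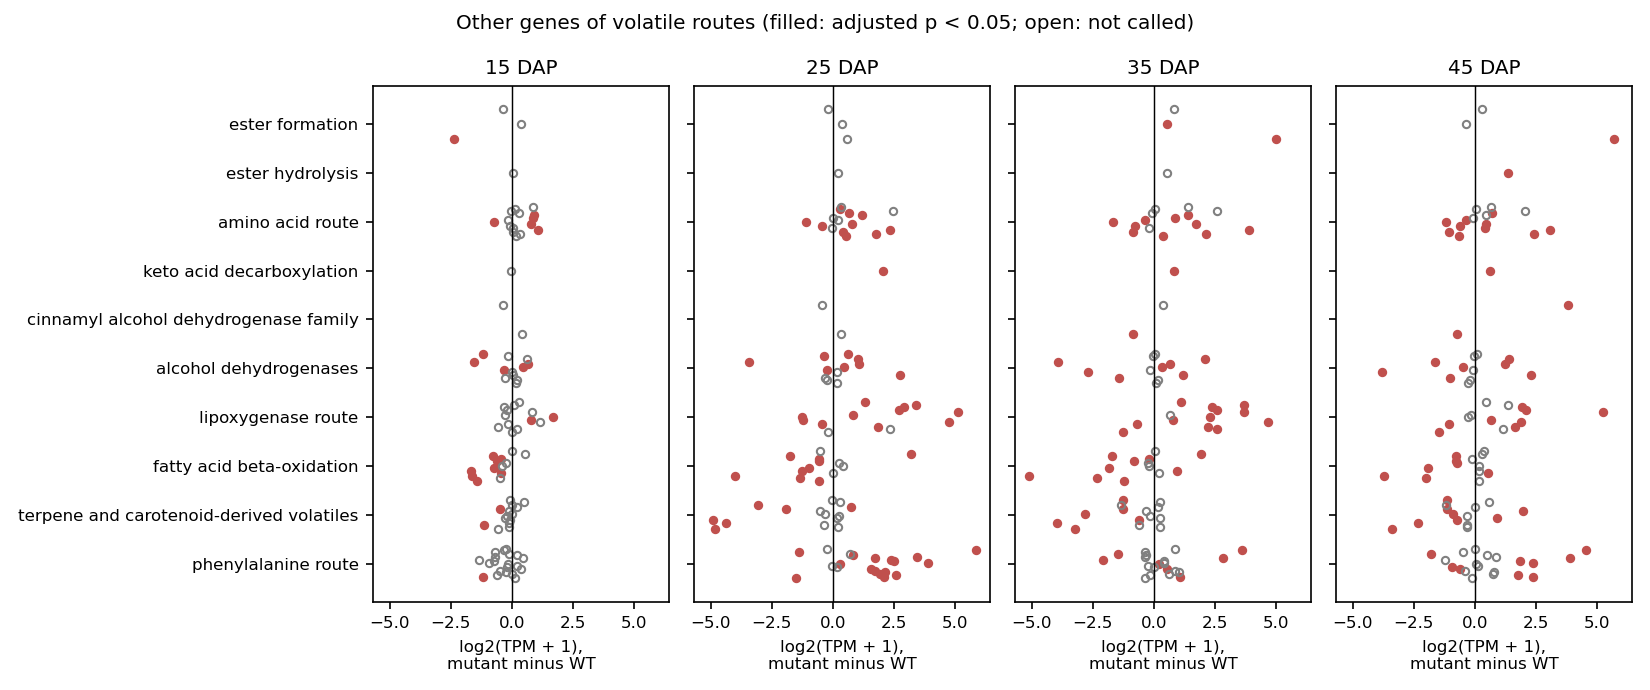
Difference of mean log2(TPM + 1), mutant minus WT, for the other tested genes of each volatile route at each age, with filled dots for a limma adjusted p under 0.05 and open dots for genes not called. At 25 and 35 DAP most filled dots of the lipoxygenase route lie right of 0 (8 and 10 of 13 genes) and most of fatty acid beta-oxidation lie left of it (8 and 7 of 13 genes). Of genes called, 72.7% and 83.3% were higher in the lipoxygenase route at these ages and 11.1% and 22.2% in beta-oxidation. Of all genes called, 72.7% and 63.9% were higher.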

How the data were processed

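RNA from melon fruit flesh was sequenced in 24 libraries, prepared with a TruSeq RNA kit per the labels' protocols. TopHat2, HISAT2, StringTie and Cufflinks are named in the submitters' processing notes, with roles and versions, like the genome build and annotation, not given in the sources used here. The deposited table was taken to hold TPM computed by the authors. No header or label names this unit. It was inferred because decimal values add up to 927159 to 963192 in each library. Depth is unknown, and libraries held 13820 to 16044 genes at 1 TPM or more.

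Groups came from sample titles, which match the column names. Genes at 1 TPM or more in at least 3 libraries (17658 genes) entered limma-trend (limma 3.58.1, R 4.3.3) on log2(TPM + 1), with pseudocount 1, 24 libraries, 8 group means and no covariate. Tests were two-sided, with Benjamini-Hochberg adjusted p under 0.05 called over all genes tested. The fit was tested on simulated data. The members and gene lists were chosen with earlier results of these data known. Named genes were the members, up to 3 genes of highest mean (at least 10 TPM over all libraries) in each of 10 route lists whatever their test, and the 2 of most similar pattern for each member. Alternatives were pseudocount 0.1, no filter on low values, median-of-ratios scaling, quantile normalization, a fit of only the 2 groups compared, a replicate block, each library left out in turn and, added after seeing the data, lists cleaned of triterpene cyclases and lipoxygenase-domain genes. A gene table of another assembly (USDA_Cmelo_AY_1.0) matched 0 of the identifiers, so no coordinates or sequences are given.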

Additional observations from a re-analysis of the deposited data

Results flagged for a closer look

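Named route genes are listed here where the genotype difference varied over the 4 ages in the limma F test (adjusted p under 0.05). Of all genes tested 73.5% passed it, and of the 94 route genes 70.2%, so passing does not set a gene apart. The adjusted p was 5.81e-09 for the DCR-like acyltransferase MELO3C003230.2, 9.08e-05 for ketol-acid reductoisomerase MELO3C018695.2, 2.21e-05 for the second pyruvate decarboxylase MELO3C007227.2 and 7.31e-07 for the cinnamyl alcohol dehydrogenase MELO3C019548.2. It was 0.0342, 6.33e-05 and 0.000495 for the alcohol dehydrogenases MELO3C026554.2, MELO3C022399.2 and MELO3C003373.2 in that order. It was 0.0047, 9.35e-06 and 0.00382 for the lipoxygenase route genes MELO3C007767.2, MELO3C014482.2 and MELO3C024348.2. For beta-oxidation it was 4.22e-08 for the thiolase MELO3C006334.2, 2e-06 for MELO3C004565.2 and 0.0014 for the thiolase MELO3C020466.2. For the carotenoid cleavage dioxygenase MELO3C023555.2 it was 0.000326 and for the terpene synthase MELO3C017957.2 0.00216. For the cinnamoyl-CoA reductases MELO3C010188.2, MELO3C017061.2 and MELO3C014584.2 it was 9.66e-07, 0.014 and 2.29e-05.

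Among the aroma genes, every mutant library of the alcohol dehydrogenase-like gene MELO3C023685.2 lay below WT at 15 DAP and above WT at 25 DAP, where the difference was 6.30. The difference between ages was not tested for it.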

How the results depend on the processing

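Among the aroma genes, 12 of 28 gene and age values moved by more than 1 SD in at least 1 setting, mostly with pseudocount 0.1, and 0 of those with non-overlapping groups changed sign. A cut in SD is wide where libraries spread, and it marked 0 of 168 values with 1 library left out. Such values still shifted, as from -10.87 to -12.33 for MELO3C024771.2 at 25 DAP without mutant library 3. The cut thus gives no measure of how far the values depend on single libraries. The 15 DAP value of the cinnamyl alcohol dehydrogenase, where groups overlapped, ran from -0.51 to 0.70. Of 61 calls of named route genes, 21 ended in at least 1 setting and 7 uncalled values became called.

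When only the 2 groups compared were fitted, the count of route genes at 15 DAP was 3 higher and 6 lower, against 8 and 16. The step between 15 and 25 DAP in the mutant then had 9 calls, against 28, and that between 35 and 45 DAP in WT 8, against 22. This fit has fewer samples. With 1 library left out, the mutant step between 35 and 45 DAP, at 31 calls with all libraries, had 18 (without mutant library 2 at 35 DAP) to 28 calls, and 19 without mutant library 3 at 45 DAP. The WT step between 35 and 45 DAP had 14 (without WT library 3 at 35 DAP) to 25 calls. With median-of-ratios scaling, MELO3C022399.2 turned to -0.01 at 25 DAP and MELO3C017061.2 to -0.16 at 25 DAP and -0.03 at 35 DAP. The median of all genes was then 0.09 at 25 DAP, against 0.44, and 0.07 at 35 DAP, against 0.27.

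Replicate numbers are shared between groups. Same-numbered mutant and WT libraries of an age deviated from their group means with correlations of -0.31 to 0.06, 0 of 12 over 0.1. No pairing by number was seen there, but 3 libraries a group cannot exclude one. Same-numbered libraries of different ages were not compared. With the replicate block, 37 route genes were higher and 22 lower at 25 DAP, against 38 and 23, and the acetolactate synthase MELO3C026205.2 lost its 25 DAP call (adjusted p = 0.0519; 0.0182 to 0.433 over all settings). Without read depth, low values such as those of the lipoxygenase carry no counting error.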

Other observations

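The alcohol dehydrogenase-like gene MELO3C023685.2 and the pyruvate decarboxylase MELO3C009145.2 shared an uneven course in the mutant, with means of 666, 6770, 894 and 2220 TPM and of 103, 1750, 43 and 518 TPM at 15, 25, 35 and 45 DAP. Pyruvate decarboxylase and alcohol dehydrogenase together carry out ethanol fermentation. MELO3C023685.2 and MELO3C009145.2 were picked with the values known, and a link between their courses was not tested. In WT at 25 DAP their means lay far apart, at 83.5 and 3200 TPM in that order. Mutant means of other named genes also rose, fell and rose, as for the pyruvate decarboxylase MELO3C007227.2 (208, 344, 125 and 195 TPM). Those of the acyltransferase MELO3C003230.2 did not. The share of all genes with such a course is not given. The cinnamoyl-CoA reductase MELO3C010188.2, at 178, 927, 367 and 820 TPM, also differed in the mutant between neighbouring ages, by 2.53, -1.34 and 1.16 later minus earlier (limma adjusted p = 1.11e-05, 0.00222 and 0.00375). In WT its differences were -0.77, -0.31 and -0.14 (adjusted p = 0.02, 0.412 and 0.834).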
